A study of Arabidopsis thaliana with 28 samples.

Results

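The 180 transposable elements (TEs) described here were read in the libraries labelled hda6-1 and had almost no reads in Columbia wild type. A TE was taken when its count reached at least 10 in both hda6-1 replicate 2 and hda6-1 replicate 3 and its counts summed to 3 or fewer over the 3 Columbia libraries. The rule was met by 180 of the 31189 TEs in the deposited table. Because these counts chose the TEs, the height of hda6-1 over Columbia is a description and carries no test. RNA was sequenced from Arabidopsis thaliana seedlings grown on soil and harvested 12 days after germination, with 3 biological replicates of each of 6 genotypes. The mutant genotypes were labelled hda6-1 h2a.z-5, hda6-1, hda9-1 h2a.z-5, hda9-1 and h2a.z-5, and the wild type Columbia-0 was the control. Per the labels, hda6-1 is the line SALK_201895C, hda9-1 is SALK_007123 and h2a.z-5 is a triple mutant; no drug is named for these plants. The series text instead names nrp1-1 nrp2-2 in place of h2a.z-5; the names used here are those of the labels and table columns.

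TEs are sequences that can copy or move themselves within a genome, and plants keep most of them silent with DNA methylation and compact chromatin. HDA6 is a histone deacetylase that acts at many such silent loci together with MET1, the enzyme that maintains DNA methylation at CG dinucleotides. HDA9 is a related deacetylase that acts mainly at genes, and H2A.Z is a variant of histone H2A that is placed at gene starts by the SWR1 complex and is scarce where DNA is methylated.

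No coordinates or family names of the TEs were used here, so a locus of the gene table was sought for each TE instead. A gene locus was matched when it lay on the same chromosome and its count differed from that of the TE by at most 2 counts or 5% in each of 17 libraries. Of the 135 TEs with at least 50 counts over these libraries, 31 had such a locus, a search chosen after the data were seen. Reads of a TE and of a gene that overlaps it cannot be told apart in these counts, and the strand they came from is not stated. RefSeq describes 3 of these loci as members of the Sadhu family, small non-coding retrotransposons. The first 240 bases of each are shown, from RefSeq assembly TAIR10.1, 5′ to 3′ on the minus strand, because these loci carry a family name. Capitals mark CG dinucleotides, the context that MET1 maintains. They are SADHU8-1 (chr1:18807155-18807394, the locus of AT1TE62360), SADHU3-1 (chr3:15813817-15814056, AT3TE63935) and SADHU5-2 (chr5:9957401-9957640, AT5TE36235). The counts of SADHU8-1 equal those of AT1TE62360 in all 18 libraries; another locus, AT1G36950, also came within the tolerance and was not used.
SADHU8-1: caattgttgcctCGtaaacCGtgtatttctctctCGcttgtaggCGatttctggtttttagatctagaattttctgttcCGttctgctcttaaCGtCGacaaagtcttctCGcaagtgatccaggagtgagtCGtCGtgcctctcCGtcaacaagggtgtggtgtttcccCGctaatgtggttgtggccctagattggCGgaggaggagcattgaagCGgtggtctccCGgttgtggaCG
SADHU3-1: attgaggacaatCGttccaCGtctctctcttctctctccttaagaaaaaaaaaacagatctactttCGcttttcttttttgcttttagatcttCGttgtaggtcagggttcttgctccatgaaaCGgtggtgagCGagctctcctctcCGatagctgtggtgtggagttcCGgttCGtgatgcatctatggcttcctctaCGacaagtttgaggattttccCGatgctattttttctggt
SADHU5-2: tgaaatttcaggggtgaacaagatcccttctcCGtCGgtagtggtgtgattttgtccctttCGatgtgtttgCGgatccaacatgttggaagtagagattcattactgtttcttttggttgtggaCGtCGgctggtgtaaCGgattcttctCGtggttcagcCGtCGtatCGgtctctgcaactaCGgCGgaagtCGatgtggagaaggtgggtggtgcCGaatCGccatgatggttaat
These windows hold 16, 11 and 16 CG dinucleotides in the order printed. Among 4744 windows of the same length at RefSeq pseudogenes, 98.9% held at least 1 CG, with a median of 7, so the presence of CG is the rule for such loci.

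A further 3 of the matched loci are near-identical copies of one another, and they are shown because 2 of their TEs are among the 8 with most reads. They are AT3G29700 (chr3:11545357-11545596, plus strand, the locus of AT3TE48070), AT3G32070 (chr3:13075710-13075949, plus strand, AT3TE53580) and AT5G35792 (chr5:13964643-13964882, plus strand, AT5TE49755). The first 240 bases of each locus of 576 bases are printed, and capitals mark the positions at which the loci differ.
AT3G29700: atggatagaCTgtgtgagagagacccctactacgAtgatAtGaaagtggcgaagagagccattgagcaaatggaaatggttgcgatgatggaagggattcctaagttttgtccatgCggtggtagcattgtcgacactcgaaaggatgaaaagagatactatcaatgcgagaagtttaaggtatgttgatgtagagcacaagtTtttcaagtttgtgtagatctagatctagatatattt
AT3G32070: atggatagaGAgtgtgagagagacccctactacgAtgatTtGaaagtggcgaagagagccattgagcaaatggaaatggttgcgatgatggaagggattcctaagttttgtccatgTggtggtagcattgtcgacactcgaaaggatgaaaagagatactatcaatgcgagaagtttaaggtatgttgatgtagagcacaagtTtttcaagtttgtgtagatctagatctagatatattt
AT5G35792: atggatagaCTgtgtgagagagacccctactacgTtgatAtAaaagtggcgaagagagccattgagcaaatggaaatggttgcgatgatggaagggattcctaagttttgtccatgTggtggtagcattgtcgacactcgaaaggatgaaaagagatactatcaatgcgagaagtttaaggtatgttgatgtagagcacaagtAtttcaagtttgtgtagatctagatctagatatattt
Over the 576 bases, AT3G29700 was 98.1% identical to AT3G32070 and 97.7% identical to AT5G35792, and AT3G32070 was 97.2% identical to AT5G35792. Reads of these copies may be split or shared by the counting, so the count of each is uncertain. AT3TE48070 had 940, 222 and 1602 counts in hda6-1 replicates 1 to 3, and AT3TE53580 had 699, 441 and 740. Both were lowest in replicate 2 and highest in replicate 3, by unlike amounts. AT5TE49755 went the other way, with 934 and 819 counts in hda6-1 replicates 2 and 3. A further pair on chromosome 5, AT5G39155 (AT5TE56645) and AT5G39185 (AT5TE56665), shared 98.7% of the 20-base words of the smaller locus, and their TEs had nearly equal counts, 24 and 23 against 22 and 20 in hda6-1 replicates 2 and 3. Of the 465 pairs among the 31 loci, 448 shared no 20-base word. The matched loci ranged from 474 to 4881 bases, with 12 over 4000 bases and 9 under 1000 bases.

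The libraries were checked against their labels before the TEs were compared. HDA6 RNA stood at 122, 88.3 and 153 CPM (counts scaled to the library's gene-table total) in the libraries labelled hda6-1, against 18.8, 12.4 and 18.8 CPM in Columbia, a log2 fold change of 2.95 ± 0.19 (SE; edgeR adjusted p = 7.60e-08). With the hda6-1 h2a.z-5 label it stood at 18.3, 15.1 and 18.6 CPM, inside the Columbia range. The libraries under the 2 hda6-1 labels thus differ in HDA6 RNA, and every library is called by its label here. HDA9 stood at 1.04 ± 0.29 CPM in hda9-1 h2a.z-5 and 1.60 ± 0.05 CPM in hda9-1, against 13.8 ± 1.42 CPM in Columbia (SD, n = 3 each). HTA11, a gene for H2A.Z, stood at 2.75 ± 0.57 CPM in hda6-1 h2a.z-5, 1.06 ± 0.29 CPM in hda9-1 h2a.z-5 and 1.67 ± 0.32 CPM in h2a.z-5, against 61.1 ± 8.73 CPM in Columbia (SD, n = 3 each). The other H2A.Z genes also stood below Columbia, with HTA9 at 44.7 ± 5.02, 59.4 ± 15.3 and 53.6 ± 2.31 CPM in the same order against 143 ± 5.59 CPM, and HTA8 at 8.71 ± 0.60, 3.86 ± 1.95 and 6.18 ± 0.73 CPM against 16.8 ± 1.58 CPM (SD, n = 3 each). NRP1 and NRP2, histone chaperone genes that the series text names in place of H2A.Z, stood at 44.9 ± 1.55 and 15.2 ± 0.94 CPM in h2a.z-5, against 44.7 ± 0.06 and 16.2 ± 2.46 CPM in Columbia (SD, n = 3 each). RNA levels do not show which alleles a line carries.

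The gene-table totals, by which all levels are scaled, ran from 32795474 to 39633678 counts. TE counts summed to between 300951 and 484606, so a TE at 10 counts stands near 0.254 CPM and its counting error is large. The column of hda6-1 replicate 1 holds no count at any of the 7134 TEs that follow AT4TE59920 in id order, among them all of chromosome 5, and its zeros there are not read. Markers of green tissue summed to between 48815 and 74435 CPM in every library, and root markers to between 121 and 214 CPM. Nearly all of the root sum was PIP2;2, while the other root markers, COBL9, PRP3 and TIP2;3, each stood at 0.408 CPM or less in every library. Seed markers summed to at most 0.597 CPM, and 3 or 4 of the 4 pollen markers had no count in each genotype. In RNA from seedlings, a change in the number of cells that transcribe a TE and a change in RNA per cell cannot be told apart.

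**Figure D1:**
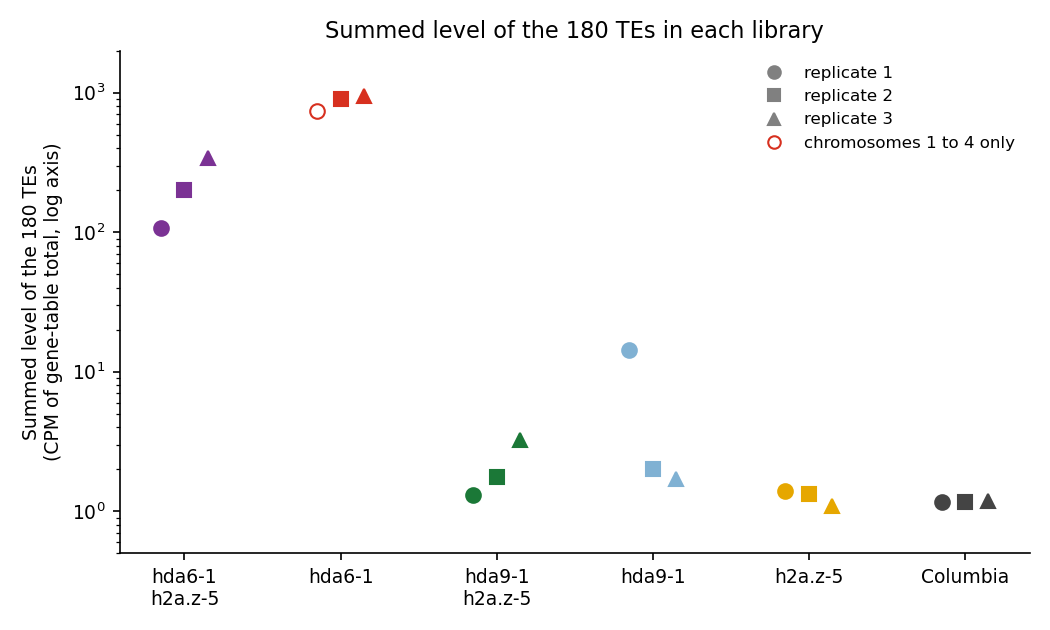
Summed level of the 180 TEs in each of 18 libraries, in CPM on a log axis, with the symbol giving the replicate number and the open circle the library whose sum covers chromosomes 1 to 4 only. The hda6-1 h2a.z-5 libraries sit between 107 and 342 CPM, below the hda6-1 libraries at 742 to 945 CPM, and hda9-1 replicate 1 at 14.2 CPM stands above the other libraries of hda9-1, hda9-1 h2a.z-5, h2a.z-5 and Columbia.

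Together the 180 TEs summed to 107, 200 and 342 CPM in hda6-1 h2a.z-5 replicates 1 to 3, and to 742, 908 and 945 CPM in hda6-1, where the first value leaves out chromosome 5. They summed to 1.31, 1.75 and 3.24 CPM in hda9-1 h2a.z-5, 14.2, 2.01 and 1.69 CPM in hda9-1, 1.39, 1.32 and 1.09 CPM in h2a.z-5, and 1.16, 1.16 and 1.19 CPM in Columbia. The plot of summed levels shows 3 tiers that do not overlap: hda6-1, then hda6-1 h2a.z-5, then the remaining libraries. The sum over the TEs outside the rule, on the rows that all libraries fill, stood in the same order within a narrow range, at 7349 to 7637 CPM in hda6-1 h2a.z-5, 8141 to 8761 CPM in hda6-1 and 6513 to 7298 CPM in the remaining libraries. A single TE, AT1TE70815, held 32.0% of the summed level in hda6-1 replicates 2 and 3. Without it, a sum chosen after the data were seen, the hda6-1 h2a.z-5 libraries stood at 51.7, 71.8 and 142 CPM and the hda6-1 libraries at 513, 529 and 732 CPM.

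**Figure D2:**
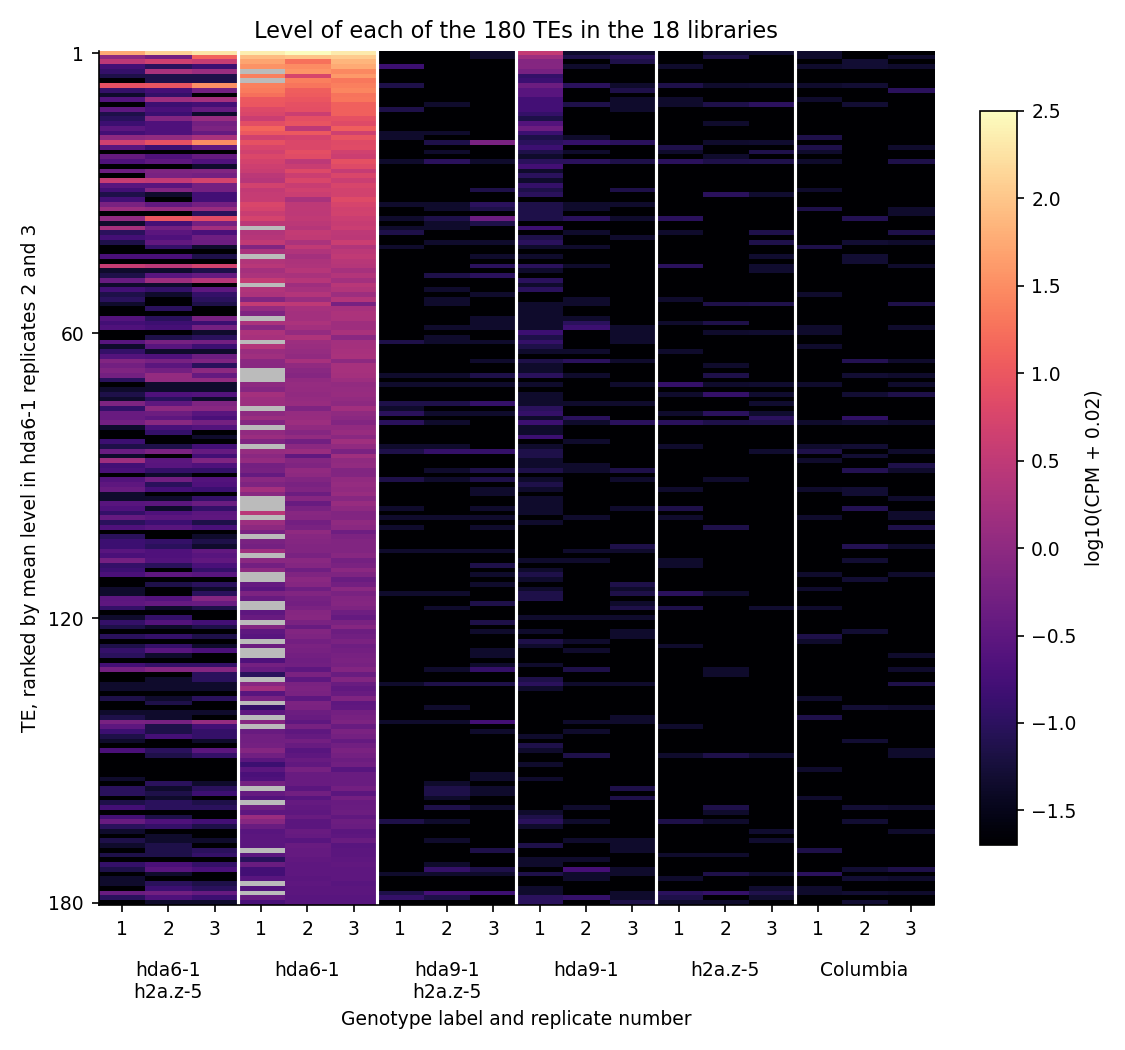
Level of each of the 180 TEs (rows, ranked by mean level in hda6-1 replicates 2 and 3) in the 18 libraries (columns), as log10(CPM + 0.02); grey marks chromosome 5 in hda6-1 replicate 1. In the hda6-1 h2a.z-5 columns some rows are as bright as in hda6-1 and others, high ranks included, are dark; 30 of the 180 TEs reached 10 counts in all 3 of these libraries and 46 stayed at 3 counts or fewer in sum.

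Replicate 1 of hda6-1 took no part in the choice of the TEs. Of the 144 chosen TEs on chromosomes 1 to 4, 132 had at least 10 counts in it, or 91.7% (95% exact binomial interval 85.9 to 95.6%, counting error over TEs only). None was at 0, and the lowest count was 3, at AT1TE72970 and AT2TE21320. Of the other TEs that were silent in Columbia by the same limit, 54 of 22097 reached 10 counts there, or 0.244%. The rule had taken from these others every TE with 10 counts in both hda6-1 replicates 2 and 3. A low share in a library of the same genotype was thus likely from the start and is no support. On chromosome 5 the gene table fills the gap for 9 matched loci, all of which had at least 10 counts in hda6-1 replicate 1: AT5G35792 (AT5TE49755) had 462, AT5G34965 (AT5TE47100) had 98 and SADHU5-2 (AT5TE36235) had 79. On chromosomes 1 to 4, 21 of the 23 matches made without that library also agreed in it within the same tolerance.

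Levels within hda6-1 spanned a wide range. The mean over replicates 2 and 3 had a median of 0.877 CPM and ran from 0.254 to 296 CPM, with 82 TEs at 1 CPM or more and 13 at 10 CPM or more. These are reads per library and not per length, so they do not rank copies of RNA between TEs. The 8 TEs with most reads held 63.6% of the sum. Replicates 2 and 3 ranked the TEs alike (Spearman rho 0.853 over 180 TEs, a description across TEs of 2 libraries that the rule used). Over the 144 TEs of chromosomes 1 to 4, the highest hda6-1 library exceeded the lowest by a median of 1.82 times and by over 4 times at 10 TEs, at most 8.05 times.

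**Figure D3:**
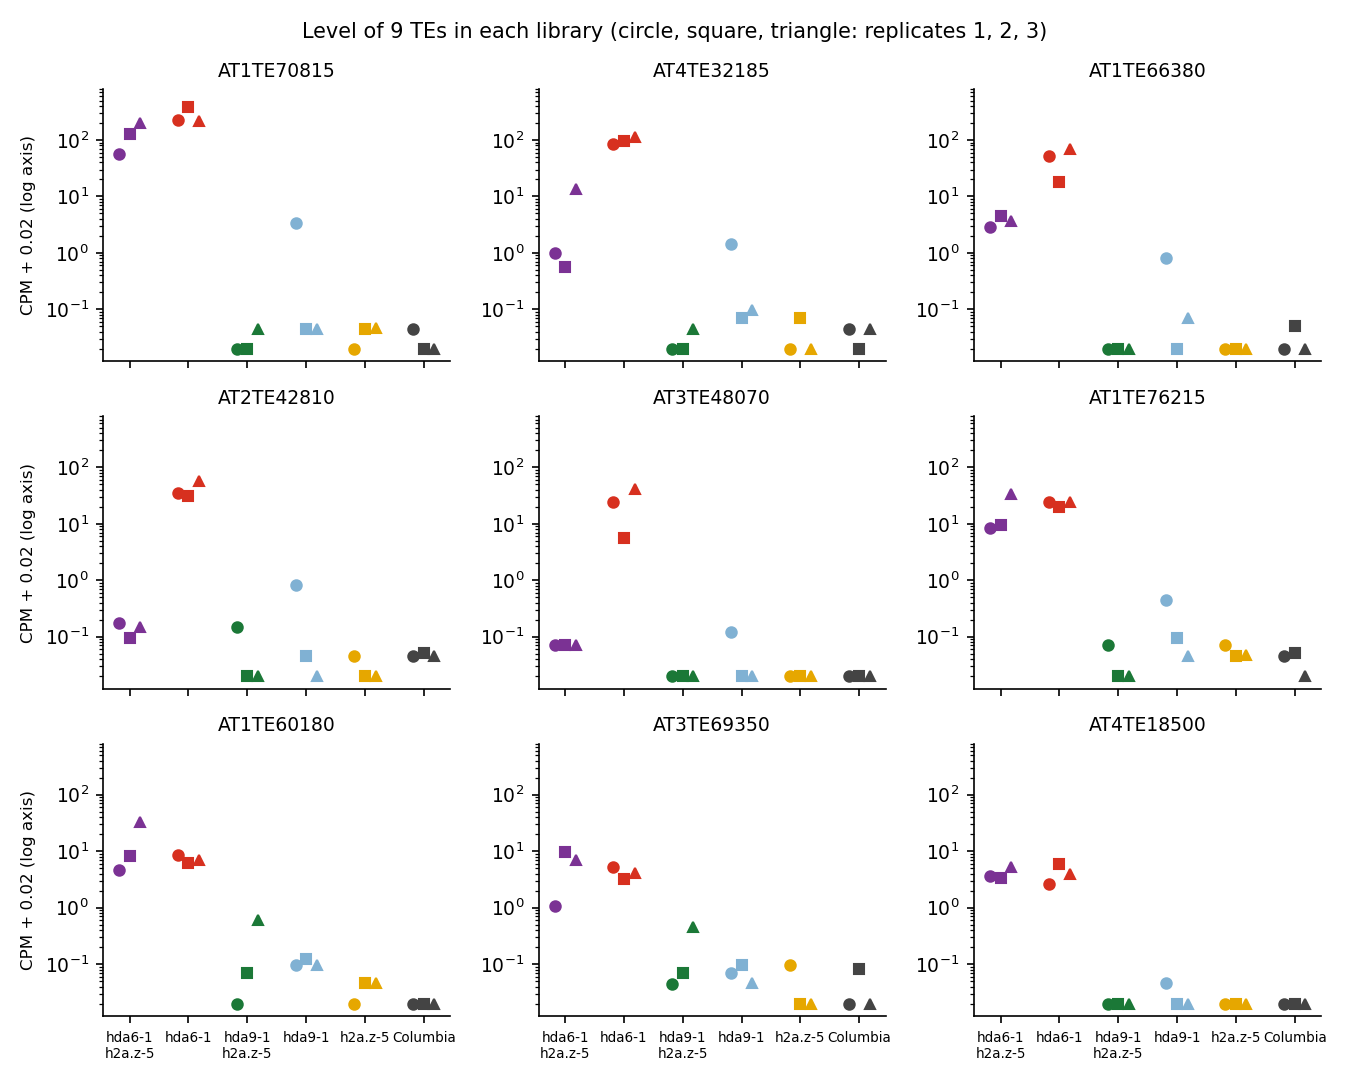
Level of 9 TEs in each library, as CPM + 0.02 on a log axis, by genotype, with circle, square and triangle for replicates 1, 2 and 3. AT2TE42810 and AT3TE48070 are high in hda6-1 and at 6 counts or fewer in each hda6-1 h2a.z-5 library, while AT1TE60180, AT3TE69350 and AT4TE18500 overlap between the 2 genotypes.

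The TE with most reads, AT1TE70815, had 2198, 5068 and 7899 counts in hda6-1 h2a.z-5, 9033, 14840 and 8436 in hda6-1, and 1, 0 and 0 in Columbia. Every hda6-1 h2a.z-5 library was below every hda6-1 library. AT4TE32185 had 38, 21 and 525 counts in hda6-1 h2a.z-5 and 3281, 3825 and 4425 in hda6-1, so that hda6-1 h2a.z-5 replicate 3 stood far above the other 2 replicates. AT1TE66380, whose counts match those of the pseudogene AT1G53810, had 111, 179 and 147 counts in hda6-1 h2a.z-5 and 2018, 711 and 2777 in hda6-1.

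Other TEs with many reads in hda6-1 were close to silent in the combined mutant. AT2TE42810 had 6, 3 and 5 counts in hda6-1 h2a.z-5 and 1387, 1221 and 2240 in hda6-1. AT3TE48070 had 2 counts in each hda6-1 h2a.z-5 library, and AT5TE49755, a near-identical copy by its locus, had 0, 2 and 2. AT5TE36335 lay between, with 4, 75 and 51 counts in hda6-1 h2a.z-5 and 1486 and 1146 in hda6-1 replicates 2 and 3. The 5 TEs highest in hda6-1 among those silent in hda6-1 h2a.z-5 were AT1TE46575, AT4TE16990, AT3TE63900, AT2TE11890 and AT3TE62785. AT1TE46575 had no count in any hda6-1 h2a.z-5 library and 181, 312 and 186 in hda6-1. The remaining 3 besides AT2TE11890 had at most 3 counts in sum in hda6-1 h2a.z-5. AT2TE11890, whose counts match the pseudogene AT2G06670, had 75, 87 and 113 counts in hda6-1 and none in the other 15 libraries.

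At some TEs the libraries of the 2 genotypes overlapped. AT1TE60180 had 180, 324 and 1293 counts in hda6-1 h2a.z-5 and 340, 241 and 274 in hda6-1, and AT3TE69350 had 41, 381 and 279 against 209, 127 and 159. AT4TE18500 had 145, 132 and 207 counts in hda6-1 h2a.z-5 and 102, 228 and 158 in hda6-1. AT1TE76215 had 329, 367 and 1332 counts in hda6-1 h2a.z-5 and 976, 762 and 943 in hda6-1. At AT1TE76215 only hda6-1 h2a.z-5 replicate 3 lay above the hda6-1 libraries, and replicates 1 and 2 lay below all of them.

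**Figure D4:**
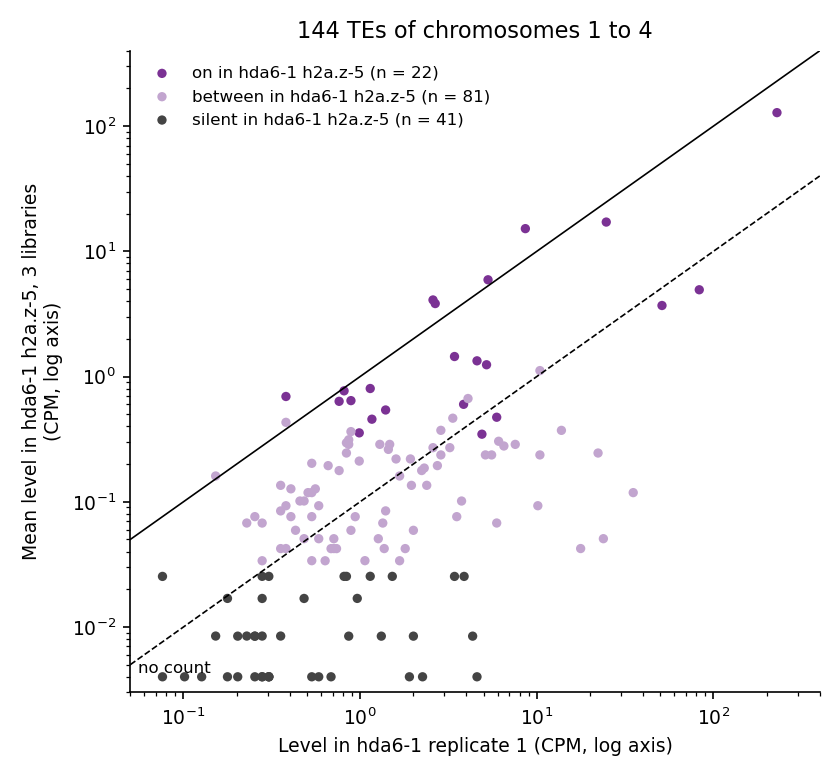
Mean level in the 3 hda6-1 h2a.z-5 libraries against the level in hda6-1 replicate 1, in CPM on log axes, for the 144 TEs of chromosomes 1 to 4; the solid line marks equal levels and the dashed line 0.1 times that level, and points on the lowest row have no count in hda6-1 h2a.z-5. Most points lie below equality, 84 of 144 below 0.1 times, and 7 lie above equality.

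Set against the unused hda6-1 replicate 1, the mean level in hda6-1 h2a.z-5 was a median of 0.0718 times as high over the 144 TEs, with quartiles of 0.0238 and 0.229. The ratio was below 0.1 at 84 TEs and above 1 at 7. At 133 of the 144, all 3 hda6-1 h2a.z-5 libraries were below hda6-1 replicate 1, and at 3 all were above it; over all 24055 TEs of these rows the shares were 6.56% and 2.66%. The 3 above it, named after their values were seen, were AT2TE27645, AT2TE28290 and AT4TE18500. AT2TE27645 had 149, 112 and 192 counts in hda6-1 h2a.z-5, against 105 in hda6-1 replicate 1. No test of this difference was made. HDA6 RNA is also lower under the hda6-1 h2a.z-5 label than under hda6-1, by the values above, and its part in this difference was not tested. Across the 180 TEs, levels in the 2 genotypes ranked together only in part (Spearman rho 0.449 between hda6-1 h2a.z-5 and the mean of hda6-1 replicates 2 and 3, a description across TEs).

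Each genotype outside the rule was then described by the same limits, with a TE called on at 10 counts or more in every library and silent at 3 counts or fewer in sum. In hda6-1 h2a.z-5, 30 of the 180 TEs were on, 104 were in between and 46 were silent, 19 of them with no count; 91.0% of the other 31009 TEs were silent there. None of the 180 was on in hda9-1 h2a.z-5, hda9-1 or h2a.z-5, where 161, 135 and 167 were silent in that order, beside 91.8%, 91.9% and 92.1% of the other TEs. Of the other TEs, 4.12% were on in hda6-1 h2a.z-5, 3.72% in hda9-1 h2a.z-5, 3.73% in hda9-1 and 3.71% in h2a.z-5. Among the 28525 other TEs that were silent in Columbia, 7 were on in hda6-1 h2a.z-5, 1 in hda9-1 h2a.z-5, 0 in hda9-1 and 1 in h2a.z-5. By level in hda6-1, the highest 60 TEs held 15 on and 10 silent in hda6-1 h2a.z-5, the middle 60 held 12 and 9, and the lowest 60 held 3 and 27. Both limits are fixed counts, so the same fold change leaves fewer on and more silent among TEs that are low in hda6-1. These counts thus do not show a fold change that depends on level. By chromosome, 7 of 24 were on in hda6-1 h2a.z-5 on chromosome 1, 8 of 52 on chromosome 2, 5 of 46 on chromosome 3, 2 of 22 on chromosome 4 and 8 of 36 on chromosome 5.

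The question of what the hda6-1 label adds in plants low in H2A.Z was answered by hda6-1 h2a.z-5 against h2a.z-5, neither of which chose the TEs. HDA6 RNA was not called in this comparison (log2 fold change -0.23, edgeR adjusted p = 0.929). At 108 of all 180 TEs every hda6-1 h2a.z-5 library was higher than every h2a.z-5 library, and at none was it lower; over the whole table the shares were 1.86% and 0.375%. In edgeR's quasi-likelihood test over the 1584 TEs that passed the filter on low counts, with Benjamini-Hochberg adjustment, 27 of the 28 chosen TEs that passed were higher at an adjusted p under 0.05 and none was lower, where 8.84% of all tested TEs were higher and 0.189% lower. Of these 28, 20 had 9 or more counts in no genotype but hda6-1 h2a.z-5 and so had to differ, and the other 152 chosen TEs were not tested; the 27 calls are a list and not support.

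AT1TE70815 had 2198, 5068 and 7899 counts in hda6-1 h2a.z-5 and 0, 1 and 1 in h2a.z-5, a ratio of 7422 (95% counting interval 2054 to 61292; edgeR adjusted p = 0.000101). AT1TE60180 had 0, 1 and 1 counts in h2a.z-5, a ratio of 879 (243 to 7268; edgeR adjusted p = 0.000108), and AT1TE76215 had 2, 1 and 1, a ratio of 496 (194 to 1823; edgeR adjusted p = 2.07e-05). AT4TE18500 and AT1TE66380 were at 0 in all h2a.z-5 libraries, and against a floor of 3 counts over that group they were at least 158-fold higher (edgeR adjusted p = 1.22e-05) and at least 143-fold higher (edgeR adjusted p = 0.00209). The ratios of AT1TE70815 and AT1TE60180 rest on 2 counts in h2a.z-5, under that floor. Their size is thus loosely fixed and cannot be ranked against these bounds. Without hda6-1 h2a.z-5 replicate 3 the ratio was 370 for AT1TE60180 and 256 for AT1TE76215, and without h2a.z-5 replicate 1 it was 579 for AT1TE60180 and 4888 for AT1TE70815. A bound falls to about 104 for AT4TE18500 and about 94.0 for AT1TE66380 without h2a.z-5 replicate 1 or 2, since the floor stays at 3 counts. The libraries of the 2 genotypes did not overlap at any of these 5. The weakest call, AT5TE36335, had 4, 75 and 51 counts against none (edgeR adjusted p = 0.0455), and with the replicate number as a block it was lost (edgeR adjusted p = 0.0988). AT1TE35305 was the one tested TE that was not called (edgeR adjusted p = 0.0798). Both are named after their values were seen in this comparison.

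Within h2a.z-5 itself the TEs stayed near the floor. The highest mean was 0.0772 CPM, at AT5TE64405, with 16, 19 and 14 counts in hda6-1 h2a.z-5 and 3, 4 and 2 in h2a.z-5; its locus AT5G44270, annotated as a TPX2 family protein gene, is given as protein-coding by RefSeq. AT1TE55795 had 8, 12 and 8 counts against 3, 2 and 2, AT3TE67325 had 20, 34 and 21 against 3, 2 and 2, AT3TE64435 had 0, 5 and 6 against 1, 2 and 3, and AT2TE30555 had 2, 8 and 9 against 1, 4 and 1. AT5TE64405, AT1TE55795, AT3TE67325 and AT2TE30555 each had 3 Columbia counts in sum, the most that the rule allows, and AT3TE64435 had 1.

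The 2 combined mutants were set against each other in a comparison that shares the hda6-1 h2a.z-5 libraries with the one above. At 105 of the 180 TEs every hda6-1 h2a.z-5 library was higher than every hda9-1 h2a.z-5 library, and at none was it lower; over the whole table the shares were 2.12% and 0.648%. Of the 28 chosen TEs tested, 27 were higher and none lower (edgeR adjusted p under 0.05), where 12.1% of all tested TEs were higher and 2.21% lower, and the same limit on how these 28 passed the filter holds. AT1TE70815 had 0, 0 and 1 counts in hda9-1 h2a.z-5 and AT1TE76215 had 2, 0 and 0, and both were called (edgeR adjusted p = 9.15e-05 and 1.57e-05). AT4TE18500, AT1TE66380 and AT1TE54530 had none, and were at least 162-fold, 146-fold and 57.1-fold higher (edgeR adjusted p = 1.22e-05, 0.00181 and 0.00164). AT1TE54530 had 15, 57 and 99 counts in hda6-1 h2a.z-5, and without replicate 3 of these its bound was 36.1. Without hda9-1 h2a.z-5 replicate 1 or 3, with the floor still at 3 counts, the bounds were 108 for AT4TE18500, 97.1 or 97.2 for AT1TE66380 and 38.0 for AT1TE54530. Without hda9-1 h2a.z-5 replicate 2, 48 of the chosen TEs passed the filter and 41 were higher, where 12.6% of all 1677 tested TEs were. With the replicate number as a block, 5.18% of all tested TEs were lower and none of the 28. The limit on how the chosen TEs passed the filter holds in these settings too, so their calls are no support.

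In hda9-1 h2a.z-5 against h2a.z-5 and against hda9-1, edgeR with the filter on low counts called none of the 28. Of these 28, 20 had 9 or more counts in no genotype but hda6-1 h2a.z-5, which is in neither comparison here. A call on those 20 was unlikely from the start, so their missing calls are no result about hda9-1. In hda9-1 h2a.z-5 against h2a.z-5, edgeR called 0 of 28, with 5 at an unadjusted p under 0.05, where edgeR called 0.947% of all tested TEs. DESeq2 called 0 of the 13 to which it gave an adjusted p, where it called 3.01% of all TEs with one, and with the replicate number as a block edgeR called 0 of 28, where it called 3.16% of all tested TEs. In hda9-1 h2a.z-5 against hda9-1, edgeR called 0 of 28, with 8 at an unadjusted p under 0.05, where edgeR called 0.442% of all tested TEs. With the block it called 0 of 28, where it called 1.58% of all tested TEs. DESeq2 called 1 of 28, where it called 1.64% of all TEs. That one, named after its values were seen, was AT1TE70815, with 0, 0 and 1 counts in hda9-1 h2a.z-5 and 135, 1 and 1 in hda9-1, so that it rests on hda9-1 replicate 1. With no filter, edgeR called 6 of 172 chosen TEs lower in hda9-1 h2a.z-5 against hda9-1, where 0.719% of all TEs tested were called. AT1TE70815 was among these 6. Against h2a.z-5, edgeR with no filter called 2 of 172 higher, where 0.763% were called. Those 2, named after their values were seen, were AT1TE60180 and AT3TE69350 (edgeR adjusted p = 0.000525 and 0.0309). These comparisons share the hda9-1 h2a.z-5 libraries. Over all 180 TEs, every hda9-1 h2a.z-5 library was higher than every h2a.z-5 library at 8 and lower at 2, where the whole table had 0.725% and 0.721%. Against hda9-1 it was higher at 2 and lower at 6, where the whole table had 0.59% and 0.709%. AT1TE60180 and AT3TE69350 were not called against hda9-1, and a missing call at these counts does not show equal levels. AT1TE60180 had 0, 2 and 23 counts in hda9-1 h2a.z-5 and 3, 4 and 3 in hda9-1, and AT3TE69350 had 1, 2 and 17 in hda9-1 h2a.z-5 and 2, 3 and 1 in hda9-1. Both highest values lie in hda9-1 h2a.z-5 replicate 3, the only library of that genotype in which any of the 180 TEs reached 10 counts. AT2TE10595 had 2, 4 and 4 counts in hda9-1 h2a.z-5 and AT2TE10575 had 2, 2 and 4, against 0, 0 and 1 each in h2a.z-5, and AT5TE64405 had 2, 6 and 5 in hda9-1 h2a.z-5.

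Replicate 1 of hda9-1 stood apart from the other hda9-1 libraries at these TEs. It had a count at 117 of the 180 and 10 or more at 9, against 48 with a count and none at 10 in each of replicates 2 and 3. AT1TE70815 had 135, 1 and 1 counts in hda9-1, AT4TE32185 had 56, 2 and 3, AT2TE42810 had 32, 1 and 0, AT1TE66380 had 31, 0 and 2, and AT5TE36335 had 22, 0 and 0. At the 27 TEs with 5 CPM or more in hda6-1 replicates 2 and 3, the level in hda9-1 replicate 1 was 0.438 to 5.62% of the hda6-1 level, with a median of 1.37%. The gene table shows the library apart in the same way: 235 genes silent in Columbia and counted in hda6-1 summed to 23.9 CPM in it, against 4.92 and 4.64 CPM in replicates 2 and 3. These genes can include loci that share their reads with the chosen TEs, so this sum is not a separate view. What sets the library apart was not tested. Without it, 170 of the 180 TEs were silent in hda9-1, against 135 with it. In hda9-1 h2a.z-5 against hda9-1, edgeR with the filter then called 0 of 46 chosen TEs, with 3 at an unadjusted p under 0.05, where it called 0.299% of all tested TEs.

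The chosen TEs were spread over all chromosomes. They numbered 24, 52, 46, 22 and 36 on chromosomes 1 to 5, or 0.336%, 0.874%, 0.712%, 0.443% and 0.539% of the TEs listed there. The 2 with most reads per chromosome in hda6-1 were AT1TE70815 and AT1TE66380, AT2TE42810 and AT2TE05665, AT3TE48070 and AT3TE63935, AT4TE32185 and AT4TE13280, and AT5TE36335 and AT5TE49755. AT3TE63935, the SADHU3-1 locus shown above, had 4, 6 and 19 counts in hda6-1 h2a.z-5 and 877, 473 and 1082 in hda6-1. AT4TE13280 had 9, 56 and 67 counts in hda6-1 h2a.z-5 and 411, 377 and 771 in hda6-1, and AT2TE05665 had 6, 8 and 14 and 411, 411 and 178.

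**Figure D5:**
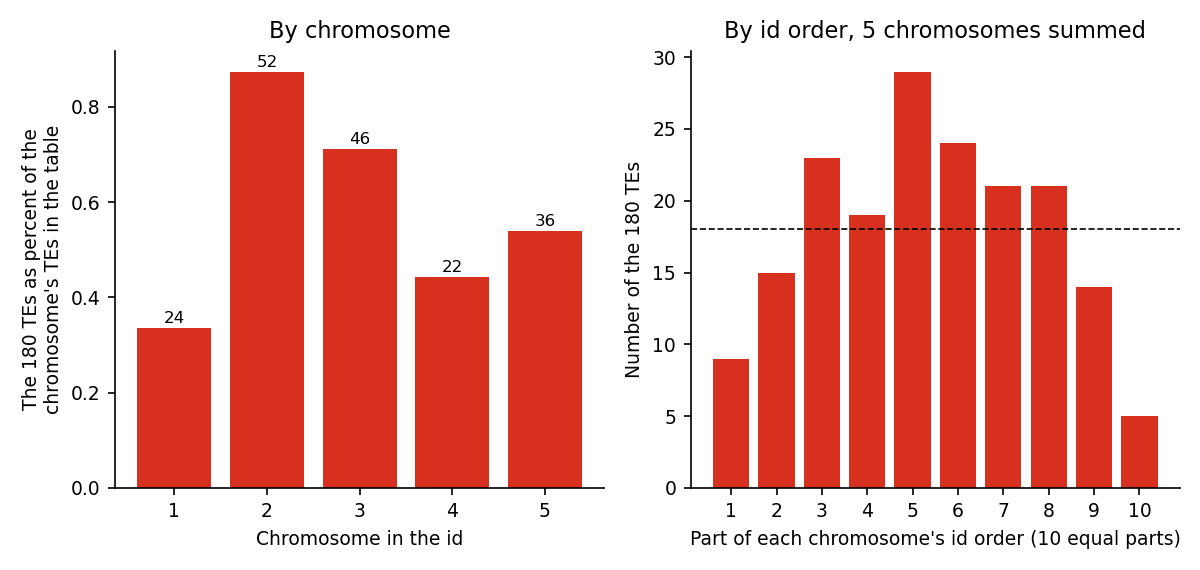
Left, the 180 TEs as a percentage of each chromosome's TEs in the table, with their number above each bar; right, their number in each of 10 equal parts of the id order, summed over 5 chromosomes, with the dashed line at 18, the number per part if they were spread evenly. Chromosome 2 has the highest share at 0.874%, and the first and last parts hold fewest, with 9 and 5.

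The ids of each chromosome were cut in order into 10 equal parts. Parts 4 to 7, in the middle, held 93 of the 180 TEs, or 51.7%, while parts 1, 2, 9 and 10 held 43, or 23.9%; each of these groups of 4 parts has the same share of all TEs, 12474 and 12476 of 31189. Ids give order and no distance, so a span of ids is not a length of chromosome. The most crowded stretches were part 7 of chromosome 2, with 12 of 595 TEs, and part 8 of chromosome 3, with 11 of 646.

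Of the chosen TEs, 156 had no chosen TE next to them in id order and 24 formed 12 pairs, with no longer run. The chosen TEs were 180 of the 31189 in the table. How many pairs an even spread would give was not computed, so these counts do not show whether chosen TEs stand alone or cluster. Of the 327 other TEs beside a chosen one, 9 had 10 or more counts in hda6-1 replicates 2 and 3, or 2.75%, beside 4.13% of all TEs outside the rule. A neighbour silent in Columbia with such counts would itself have been chosen. These shares thus cannot show whether the neighbours of a chosen TE rose with it. In 1 pair both TEs were on in hda6-1 h2a.z-5: AT5TE66495, with 27, 20 and 37 counts there, and AT5TE66500, with 65, 20 and 61. AT3TE20775 and AT3TE20780 had 6, 8 and 18 and 6, 28 and 21 counts in hda6-1 h2a.z-5, and 102, 123 and 111 and 132, 186 and 189 in hda6-1. Neighbours did not always go together: AT5TE36330 was silent in hda6-1 h2a.z-5 and its neighbour AT5TE36335 was not.

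The authors' deposited table compares hda6-1 with Columbia and lists all 180 TEs, 148 of them at an adjusted p under 0.05, beside 8.06% of the 4715 TEs with an adjusted p in that table. The rule used the same contrast, so the count is a description. The authors' deposited table passes all 144 TEs of chromosomes 1 to 4 but 4 of the 36 of chromosome 5, where 0.883% of all its TEs of chromosome 5 do. The authors' deposited table gives AT5TE36335 a log2 fold change of 12.09 and an adjusted p of 0.00397, and AT1TE70815 a log2 fold change of 14.76 and an adjusted p of 1.47e-28. For all 1138 TEs it lists after AT4TE59920, the mean it gives for hda6-1 equals, within 0.01, the mean with replicate 1 entered as 0. Its chromosome 5 values thus hold the empty column, and the median log2 fold change in the authors' deposited table was 5.98 for the 36 TEs of chromosome 5 and 7.09 for the 144 others.

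A list of 34 genes that act in TE silencing, among them DNA methyltransferases, small-RNA pathway genes and chromatin factors, was set beside the TEs; all 34 passed the filter. In hda6-1 against Columbia, HDA6 itself was called higher, as given above, and no other gene of the list was called in edgeR over 20761 genes, where 3.12% of all genes were; the list's median log2 fold change was 0.00, beside -0.01 over all genes. In hda6-1 h2a.z-5 against h2a.z-5, edgeR called 0 of 34, with 0 at an unadjusted p under 0.05, where 1.96% of all genes were called, and DESeq2 called 0, where it called 2.55% of all genes; the median log2 fold changes in edgeR were -0.09 and -0.02. With the replicate number as a block, 3 of the 34 genes were called in the first comparison, where 4.91% of all genes were, and 1 in the second, where 3.09% were. ROS1, which removes DNA methylation, then fell in both (log2 fold changes of -0.91 and -0.84 without the block; edgeR adjusted p with it = 0.000445 and 0.000903), and MORC6, a chromatin ATPase of TE silencing, rose in the first (0.49; edgeR adjusted p with the block = 0.0214).

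TEs lay close to each limit of the rule on both sides. Just inside the Columbia limit, 15 chosen TEs had 3 Columbia counts in sum, among them AT1TE44720, AT1TE52925 and AT1TE55795, and just outside it 13 TEs had 4, among them AT1TE43355, AT1TE76735 and AT2TE16740. AT1TE55795 had 116 and 322 counts in hda6-1 replicates 2 and 3, and AT1TE76735, outside, had 37 and 31. Just inside the hda6-1 limit, 8 chosen TEs had 10 as their lower count, among them AT1TE43585, AT3TE53200 and AT3TE62565, and just outside it 13 TEs had 9, among them AT1TE42080, AT1TE44105 and AT1TE44980.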

How the data were processed

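Transcripts of 18 seedling libraries, 3 for each of 6 genotypes, were read from 2 tables of raw read counts that the authors deposited, one over 31189 TEs and one over genes. Aligner, counter and strand setting of the RNA libraries were not given in the sources used here, while TAIR10 is named in the submitters' processing notes. One comparison table of the authors, with log2 fold changes and an adjusted p-value for each TE per the file headers, was used to describe only.

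The 180 TEs, the gene lists and the tests were chosen with earlier results of these data known. TE counts were divided by the gene-table total of the library and given as CPM. edgeR 4.0.16 (glmQLFit, glmQLFTest, R 4.3.3) was fitted to the 12 libraries of the 4 genotypes that did not choose the TEs, after filterByExpr (minimum count 10, minimum total 15), with gene-table totals as library sizes, 8 residual degrees of freedom and Benjamini-Hochberg adjustment over all 1584 TEs tested. Genes were fitted in all 18 libraries with TMM factors. SEs were taken from the F statistic. Counting intervals are exact (Clopper-Pearson) and cover counting error only, since PCR reads are not independent molecules; a group at 0 was set at a floor of 3 counts. DESeq2 1.42.0, other scalings, other filters, a replicate block and left-out libraries were the alternatives.

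Replicate numbers pair the libraries: over the 18 libraries, deviations from the group means correlated at 0.134 to 0.615 in all 45 same-numbered pairs and at a median of -0.221 in the others. Deviations within a group cancel out, so positive values in the same-numbered pairs bring negative ones in the others. The negative median is thus no separate sign of pairing. TEs named are the 8 with most reads in hda6-1 replicates 2 and 3, the 5 highest in each other mutant genotype, the 2 highest per chromosome, the 5 called TEs with the largest change and no overlap in each comparison, TEs of neighbour pairs, the 3 nearest to each limit, and the 5 highest in hda6-1 that were silent in hda6-1 h2a.z-5. Of the silencing list, up to 6 called genes were named. The Mock and TSA libraries of the series, which have no TE counts in the files used, were left out.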

Additional observations from a re-analysis of the deposited data

How the results depend on the processing

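The rule's limits decide how many TEs there are: 104 with no Columbia count, 206 with up to 5, 295 at 5 counts in hda6-1 and 114 at 20 counts or at 0.5 CPM, and 194 to 234 with 1 library left out. In hda6-1 h2a.z-5, 54 were on at 5 counts and 16 at 20 counts or 0.5 CPM, and 32 to 40 with a library left out. In hda6-1 h2a.z-5 against h2a.z-5, 78 of 172 chosen TEs tested were called with no filter (2.38% of all TEs tested were higher), 10 of 10 with a filter of 30 counts (7.02%), 84 of 175 in a fit of 17 libraries (11.3%), 64 of 145 in a fit of all 18 (9.40%), and 27 to 39 with a library left out (7.34% to 8.44%). With a library left out, 31 to 48 chosen TEs were tested. In hda6-1 h2a.z-5 against hda9-1 h2a.z-5 the counts called were 74 (2.56%), 10 (11.3%), 86 (15.1%), 67 (11.9%) and 28 to 41 (9.76% to 12.6%), of the same numbers tested. In the fits of 17 and 18 libraries the chosen TEs could pass the filter through the hda6-1 libraries that the rule used. In hda9-1 h2a.z-5 against hda9-1, 6 of 172 chosen TEs were called with no filter, all lower (0.719% of all TEs tested were called). DESeq2 called 1 of 28 there, also lower (1.64%). Against h2a.z-5, 2 of 172 were called with no filter, both higher (0.763%). With the replicate block, 3 silencing genes were called in hda6-1 against Columbia (4.91% of all genes) and 1 in hda6-1 h2a.z-5 against h2a.z-5 (3.09%). With it, 26 of the 28 TEs were called in hda6-1 h2a.z-5 against h2a.z-5, where 10.2% of all tested TEs were higher. Against hda9-1 h2a.z-5, 27 of 28 were called, where 16.5% were higher. In hda9-1 h2a.z-5 against h2a.z-5 and against hda9-1, 0 of 28 were called, where 3.16% and 1.58% of all tested TEs were. Over all TEs tested it moved the calls to 25, against 7 without it, in hda9-1 h2a.z-5 against hda9-1, to 50, against 15, in hda9-1 h2a.z-5 against h2a.z-5, and the lower calls to 82, against 35, in hda6-1 h2a.z-5 against hda9-1 h2a.z-5. Exact equality of counts left 2 of the 31 matched gene loci. The 10 changes named by the rule for the tests kept their direction and call in all 139 recomputed values. They were picked as the largest called changes without overlap, so this stability was likely from the start and is no support. At these depths a TE under 3 counts in a genotype cannot be told from one with none, and levels near 0.254 CPM rest on about 10 counts.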

Other observations

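Some TEs with many reads in hda6-1 missed the rule by a few Columbia counts. AT1TE42875 had 6946, 11961 and 13564 counts in hda6-1 and 2, 3 and 0 in Columbia, at 324 CPM in hda6-1 replicates 2 and 3, above every TE that met the rule. AT1TE93275 had 831, 1007 and 1228 counts in hda6-1 and 4, 3 and 1 in Columbia, and AT2TE05755 had 567, 1000 and 1059 and 3, 1 and 2. They were named after their values were seen.

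The counts of AT4TE09080 equal those of the pseudogene AT4G03911 in every library, with 234, 164 and 488 counts in hda6-1 replicates 1 to 3. This locus of 474 bases shares 32 words of 20 bases with AT3G29700, one of the 3 near-identical loci.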
